A study of Sus scrofa with 24 samples.

Results

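Enzymes that break down glucose and that make or degrade glycogen were followed in the livers of 24 pigs (Sus scrofa). The set comprised 8 genes, PKLR, GPI, PGK1, ENO1 and LDHA of glycolysis and GYS2, PYGL and UGP2 of glycogen metabolism. A probe belonged to the set where the gene name, description or accession printed for it in the scanner output named one of these genes. Such probes were found for 6 of the 8 genes and numbered 22 of the 43603 probes on the array: 3 for GPI, 6 for PGK1, 1 for LDHA, 3 for GYS2, 4 for PYGL and 5 for UGP2. No probe named PKLR or ENO1, and both are not analysed here. All 22 probes were well above background on all 24 arrays with no saturated spot, and all 22 passed the filter on dim probes, which kept 29666 probes.

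Each array held liver RNA of 1 pig at 115 kg body weight, and each of the 3 groups held 8 pigs. Restricted high RFI pigs (RFIplR) belonged to a line selected for high residual feed intake (RFI) and received only as much feed as the low RFI line ate. High RFI pigs (RFIpl) came from that same line and ate ad libitum. Low RFI pigs (RFIneg) came from the opposite line and also ate ad libitum. RFI is the feed an animal eats beyond what its growth and maintenance predict, so the low RFI line is the more feed-efficient one. The study has 1 line of each kind, so a difference between lines is one between these lines, and the labels used here give no sex or age of the pigs.

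The liver takes up glucose after a meal, stores part of it as glycogen and releases glucose again between meals. In storage, UGP2 makes UDP-glucose, GYS2, the liver form of glycogen synthase, adds its glucose to the growing chain, and PYGL, the liver form of glycogen phosphorylase, frees it again. GPI, PGK1 and LDHA work in glycolysis, and GPI and PGK1 also run in the opposite direction when the liver makes new glucose.

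The share of spots well above background ran from 63.2% to 72.7% over the 24 arrays, with 67.4% ± 2.81 in restricted high, 70.2% ± 2.28 in high and 67.8% ± 2.77 in low RFI pigs (SD, n = 8 each). Correlations between arrays over the kept probes ran from 0.971 to 0.991, and no 2 arrays held identical values. The arrays lay on 6 slides scanned on 2 days, and every slide held all 3 groups. Restricted high RFI pigs 7 and 8, and for some genes high RFI pig 7, stood apart from the other pigs. Values without the 2 restricted pigs are given beside the GYS2, UGP2 and PPP1R3C results. These 2 pigs are at the extremes for these same genes, so leaving them out was bound to shift the differences. Those refits show how much of a difference rests on the 2 pigs and are no separate test. Of 8 hepatocyte markers 7 were measured, ALB the brightest, and their mean level was 7.41 to 7.58 in restricted high, 7.41 to 7.74 in high and 7.46 to 7.58 in low RFI pigs. Of 7 markers of stellate cells and fibroblasts 4 were measured, with ACTA2 the brightest and with COL1A1, COL3A1 and LUM named by no probe. Their mean level was 0.13 to 1.23 in restricted high, 0.38 to 1.352 in high and 0.94 to 1.996 in low RFI pigs. The skeletal muscle list (ACTA1 the brightest) had a median level of -0.41, -0.28 and -0.15 in restricted high, high and low RFI pigs, and the pancreatic acinar list (AMY2 the brightest) -0.50, -0.11 and 0.44. Only 2 of 5 acinar markers were measured. For restricted high minus low and for high minus low RFI pigs, 1 of these 2 lay above 0, so the acinar medians do not describe both markers. For the leucocyte and Kupffer cell, endothelial, bile duct and adipocyte lists, whose brightest markers were CD14, PECAM1, EPCAM and FABP4, the median difference in any comparison lay between -0.23 and 0.11. MYH2, PLIN1, CELA1 and PNLIP had probes that failed the filter. No marker of these lists was called in any comparison, and the part of other cell types in the differences given next was not tested.

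A level is the log2 of a probe's processed signal minus the 75th percentile of its array, and a difference is a difference of group means on that scale. Levels of different probes were not set against each other, since probes differ in how brightly they light up for the same amount of RNA. Each gene is described by its brightest probe, with the other probes beside it. Bulk liver was measured, so fewer cells of a type and less RNA per cell cannot be told apart.

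The probes are 60 bases long, and their sequences are printed as the deposited scanner files give them. The 3 GYS2 probes do not overlap, and they are shown because restricted high RFI pigs 7 and 8 stand apart on all 3. Probe A_72_P427819 of UGP2 and probe A_72_P146806 of GPI are shown because each departed from the other probes of its gene.
GYS2 A_72_P416118: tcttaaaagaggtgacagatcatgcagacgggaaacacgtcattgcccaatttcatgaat
GYS2 A_72_P454928: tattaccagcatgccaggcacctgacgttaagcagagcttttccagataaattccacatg
GYS2 A_72_P388198: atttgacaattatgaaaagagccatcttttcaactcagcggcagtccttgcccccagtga
UGP2 A_72_P427819: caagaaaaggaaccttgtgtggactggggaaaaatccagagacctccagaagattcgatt
GPI A_72_P146806: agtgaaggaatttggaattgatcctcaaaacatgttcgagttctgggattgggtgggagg

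Other probes overlapped, so they are not separate readings of a transcript. Probes A_72_P606238 and A_72_P165756 of UGP2 shared 55 bases, A_72_P725363 and A_72_P718553 of PGK1 shared 33, and A_72_P527333 and A_72_P249712 of PYGL shared 59. Another PYGL probe, A_72_P662223, shared 52 and 51 bases with them. In the windows of 30 bases below, a capital letter marks the base that only 1 probe of the pair holds.
UGP2 A_72_P606238: gcctcataatgatcactttgaactgcttgt
UGP2 A_72_P165756: gcctcAataatgatcactttgaactgcttg
PGK1 A_72_P725363: tggaaacaaatgaaattccaattgtaggga
PGK1 A_72_P718553: tggaaacaaGatgaaattccaattgtaggg
PYGL A_72_P527333: gtggatcAtggagccctttgaacatgtaat
PYGL A_72_P249712: gtggatctggagccctttgaacatgtaatt

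The letters AATAAA, the usual polyadenylation signal of animal transcripts, occurred in 3 of the 22 probes, A_72_P440286 of GPI and A_72_P606238 and A_72_P165756 of UGP2. The same letters occurred in 9.60% of all 43603 probes as printed and in 13.4% on either strand. The window of the GPI probe is shown with the motif in capitals.
GPI A_72_P440286: accaggtagaaaAATAAAgatgccataaag

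None of the 6 measured genes differed between groups past the threshold, an adjusted p below 0.05 in limma with Benjamini-Hochberg adjustment over all 29666 kept probes. Restricted high against high RFI pigs gave 0 of 6 genes and 0 of 22 probes, where 0% of all kept probes were called. Restricted high against low RFI pigs gave 0 of 6 genes and 0 of 22 probes, against 0.229% of all kept probes. High against low RFI pigs gave the same counts, against 0.162% of all kept probes, as did the F test over the 3 groups, against 0.212%. At an unadjusted p below 0.05, 4 of the 22 probes passed for restricted high minus high RFI pigs (5.37% of all kept probes did), 1 for restricted high minus low (12.8%) and 0 for high minus low (9.64%). In the F test 1 of the 22 probes, A_72_P165756 of UGP2, passed without adjustment, against 10.9% of all kept probes. All 4 probes of the first comparison belonged to UGP2, and the 1 of the second was a UGP2 probe as well.

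For restricted high minus high RFI pigs, 5 of 6 genes lay above 0 and 1 below, with a median difference of 0.13, against a median of -0.01 over all kept probes. For restricted high minus low RFI pigs, 5 lay above 0 and 1 below, with a median of 0.09 against -0.0053 over all kept probes. For high minus low RFI pigs, 2 lay above 0 and 4 below, with a median of -0.08 against 0.0036 over all kept probes. The 3 comparisons share arrays, so their values are not independent of each other.

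**Figure D1:**
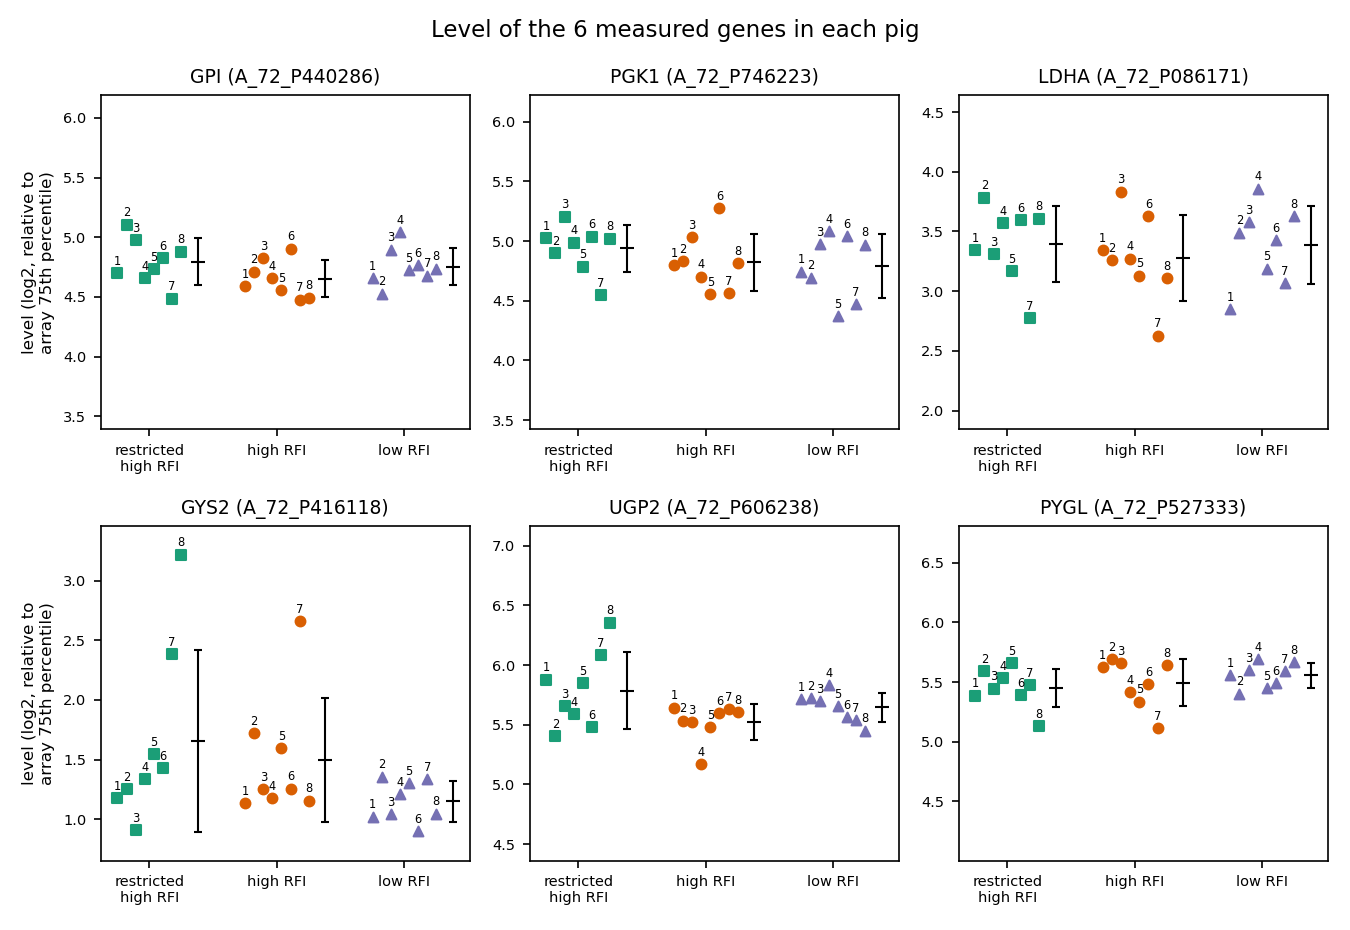
Level of each of the 6 measured genes (log2, scaled to each array's 75th percentile, vertical axis) in every pig by group, with the pig's number beside its point and the group mean ± SD at the right of each group. All panels span the same number of log2 units, and the GYS2 points of restricted high RFI pigs 7 and 8 and of high RFI pig 7, at 2.38, 3.22 and 2.66, lie above all other GYS2 points.

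GPI interconverts the phosphates of glucose and fructose at the head of glycolysis. Its probe A_72_P440286 had a lowest, median and highest level of 4.49, 4.78 and 5.11 in restricted high RFI pigs, 4.48, 4.62 and 4.91 in high RFI pigs and 4.53, 4.73 and 5.04 in low RFI pigs. The 3 groups overlapped over most of their range. The group means were 4.80 ± 0.19 in restricted high, 4.65 ± 0.15 in high and 4.75 ± 0.16 in low RFI pigs (SD, n = 8 each), and no neighbours in that order differed beyond their spread. Restricted high minus high RFI pigs gave 0.14 (95% interval -0.04 to 0.33, adjusted p = 0.946). Against low RFI pigs the restricted pigs gave 0.04 (-0.14 to 0.23, adjusted p = 0.884), and high minus low gave -0.10 (-0.29 to 0.08, adjusted p = 0.766).

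The other GPI probes did not all follow it. With group means removed, probe A_72_P458444 correlated with A_72_P440286 at r = 0.84 over the 24 arrays, while A_72_P146806 correlated with them at 0.35 and 0.37. On A_72_P146806 low RFI pig 6 stood at 1.07, and the other 23 pigs lay between -1.04 and -0.21. Neither of the other 2 probes set that pig apart. The difference restricted high minus low RFI pigs was -0.11 on A_72_P458444 and -0.24 on A_72_P146806, against 0.04 on the brightest probe, and none of the 3 passed the test.

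PGK1 catalyses the first step of glycolysis that yields ATP. Its probe A_72_P746223 had a lowest, median and highest level of 4.55, 5.003 and 5.20 in restricted high RFI pigs, 4.56, 4.81 and 5.27 in high RFI pigs and 4.37, 4.86 and 5.08 in low RFI pigs. High RFI pig 6 was the highest and low RFI pig 5 the lowest of all 24, and the groups overlapped. For restricted high minus low RFI pigs the difference was 0.14 (95% interval -0.10 to 0.39, adjusted p = 0.657) and restricted high minus high was 0.12 (-0.13 to 0.36, adjusted p = 0.967). High minus low RFI pigs was 0.03 (-0.22 to 0.27, adjusted p = 0.969). The means were 4.94 ± 0.20 in restricted high, 4.82 ± 0.24 in high and 4.79 ± 0.27 in low RFI pigs (SD, n = 8 each), and neighbours in that order did not differ beyond their spread. All 6 PGK1 probes lay above 0 in both comparisons with the restricted group, with differences of 0.04 to 0.12 against high and 0.04 to 0.18 against low RFI pigs, and in high minus low RFI pigs 4 lay above and 2 below 0. By scan day, restricted high minus low RFI pigs was 0.46 ± 0.15 among arrays of the first scan day and -0.11 ± 0.16 among those of the second (SE, adjusted p = 0.228 and 0.847).

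LDHA makes lactate from pyruvate, and as part of lactate dehydrogenase also works in the other direction. Its only probe, A_72_P086171, had a lowest, median and highest level of 2.77, 3.46 and 3.78 in restricted high RFI pigs, 2.63, 3.26 and 3.83 in high RFI pigs and 2.85, 3.46 and 3.86 in low RFI pigs. Each group spanned about the same range. The means were 3.39 ± 0.32, 3.27 ± 0.36 and 3.39 ± 0.33 in restricted high, high and low RFI pigs (SD, n = 8 each), and no pair differed beyond its spread. Restricted high minus high RFI pigs was 0.12 (95% interval -0.22 to 0.45, adjusted p = 0.980), restricted high minus low 0.0069 (-0.33 to 0.34, adjusted p = 0.993) and high minus low -0.11 (-0.45 to 0.22, adjusted p = 0.870).

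The LDHA differences took opposite signs on the 2 scan days. On the first day, with 5 restricted high, 4 high and 3 low RFI pigs, restricted high minus low RFI pigs was 0.54 ± 0.14 (SE, adjusted p = 0.161). On the second, with 3, 4 and 5 pigs, it was -0.51 ± 0.23 (SE, adjusted p = 0.509). High minus low RFI pigs was 0.29 on the first day and -0.37 on the second, and restricted high minus high 0.26 and -0.14. The pooled value near 0 for restricted high minus low RFI pigs did not hold within days.

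**Figure D2:**
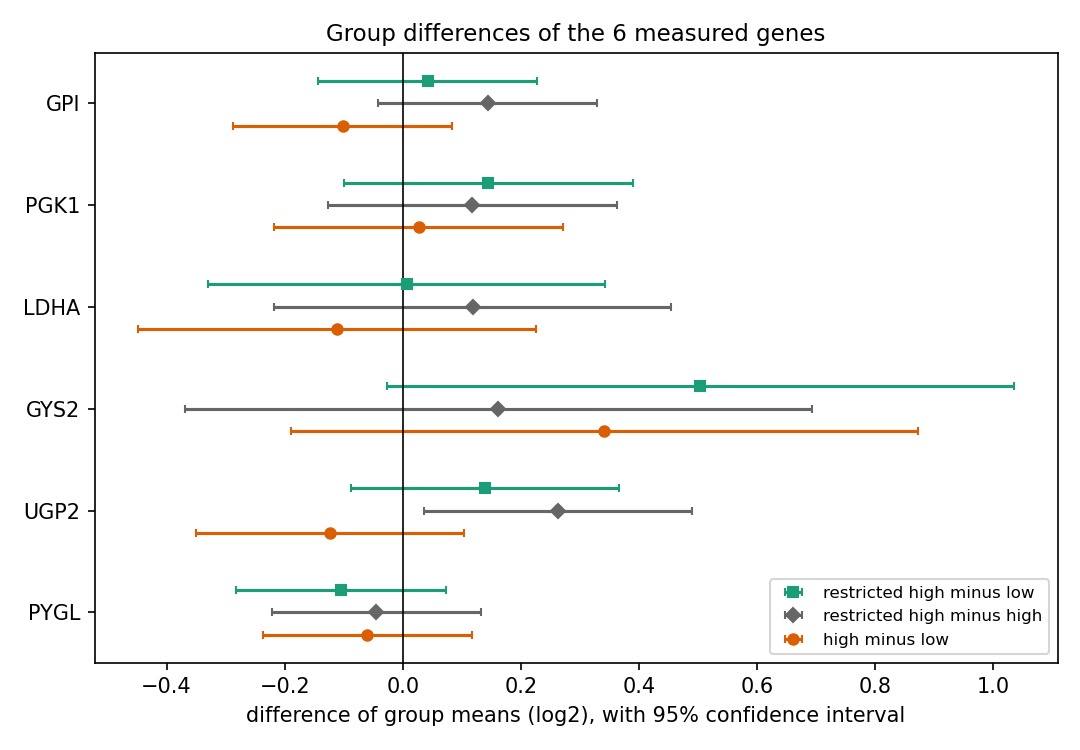
Differences between group means for the 6 measured genes (log2, horizontal axis), with the 95% confidence interval from limma as a bar and 1 row per comparison under each gene. Every interval takes in 0 except that of UGP2 for restricted high minus high RFI pigs, 0.04 to 0.49 without adjustment for the number of probes tested.

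UGP2 supplies UDP-glucose for glycogen and for other sugar chains. In restricted high RFI pigs 1 to 8 its probe A_72_P606238 stood at 5.88, 5.40, 5.66, 5.59, 5.85, 5.48, 6.08 and 6.35. The lowest, median and highest level was 5.17, 5.57 and 5.64 in high RFI pigs and 5.45, 5.68 and 5.83 in low RFI pigs. Pigs 7 and 8 were the highest of the restricted group, while high RFI pig 4 was the lowest of all 24, and the groups overlapped. The means were 5.79 ± 0.32 in restricted high, 5.52 ± 0.15 in high and 5.65 ± 0.12 in low RFI pigs (SD, n = 8 each). Restricted high minus high RFI pigs was 0.26 (95% interval 0.04 to 0.49, a fold of 1.20), with 6 of 8 restricted pigs above the high RFI mean. Its unadjusted p was 0.0247 and its adjusted p = 0.906, so it failed the test over all probes. Without restricted pigs 7 and 8 the difference was 0.12 ± 0.09 (SE, adjusted p = 0.945). Since these pigs were the highest of their group on this probe, that decrease was built in.

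All 8 high RFI pigs lay below the low RFI mean on UGP2 probe A_72_P606238, yet high minus low RFI pigs was only -0.12 (95% interval -0.35 to 0.10, adjusted p = 0.767). Against low RFI pigs the restricted pigs gave 0.14 (-0.09 to 0.37, adjusted p = 0.643), and -0.0048 without restricted pigs 7 and 8. The other 4 UGP2 probes gave 0.24 to 0.30 for restricted high minus high RFI pigs, with unadjusted p-values between 0.0140 and 0.130 and adjusted p-values from 0.858 upward. These were 0.06 to 0.16 without restricted pigs 7 and 8. High RFI pigs above the low RFI mean numbered 0 of 8 on A_72_P165756, 1 of 8 on A_72_P557835 and on A_72_P581152, and 5 of 8 on A_72_P427819. Probe A_72_P427819, whose sequence is printed above, parted from the rest: high minus low RFI pigs was 0.09 on it and -0.12 to -0.15 on the others, and restricted high minus low 0.35 ± 0.16 (SE, adjusted p = 0.366). Without restricted pigs 7 and 8 restricted high minus low RFI pigs on this probe was 0.15 ± 0.14 (SE, adjusted p = 0.771). On that probe low RFI pig 8 was the lowest, at 2.23, and restricted pigs 7 and 8 were the highest, at 3.95 and 3.86. With group means removed, correlations between UGP2 probes over the 24 arrays were 0.56 to 0.77 for pairs with A_72_P427819 and 0.93 to 0.98 for pairs without it.

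GYS2 adds glucose to glycogen in the liver, and it held the widest spread between pigs of the 6 genes. In restricted high RFI pigs 1 to 8 probe A_72_P416118 stood at 1.17, 1.25, 0.91, 1.34, 1.54, 1.43, 2.38 and 3.22. In high RFI pigs 1 to 8 it stood at 1.13, 1.72, 1.25, 1.18, 1.60, 1.26, 2.66 and 1.16, and in low RFI pigs the lowest, median and highest level was 0.90, 1.13 and 1.36. Restricted pigs 7 and 8 and high RFI pig 7 were above all others, and the remaining pigs of the 3 groups overlapped. The means were 1.66 ± 0.76 in restricted high, 1.49 ± 0.52 in high and 1.15 ± 0.17 in low RFI pigs (SD, n = 8 each).

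GYS2 gave 0.50 for restricted high minus low RFI pigs (95% interval -0.03 to 1.03, a fold of 1.42), with 7 of 8 restricted pigs above the low RFI mean (unadjusted p = 0.0620, adjusted p = 0.421). Without restricted pigs 7 and 8 it was 0.12 ± 0.18 (SE, adjusted p = 0.864). Restricted high minus high RFI pigs was 0.16 (-0.37 to 0.69, adjusted p = 0.983) and turned to -0.22 ± 0.18 without those pigs (SE, adjusted p = 0.946). High minus low RFI pigs was 0.34 (-0.19 to 0.87, adjusted p = 0.719), and 0.18 without high RFI pig 7. As a fold, the interval of the first difference runs from 0.981 to 2.05.

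Both other GYS2 probes set the same restricted pigs apart. On A_72_P454928 pigs 7 and 8 stood at 1.28 and 1.99, and the other 6 restricted pigs between -0.27 and 0.62. On A_72_P388198 they stood at 0.22 and 0.54, against -0.84 to -0.49 in the other 6. Without these pigs restricted high minus low RFI pigs was -0.15 on A_72_P454928 and -0.07 on A_72_P388198, against 0.20 and 0.19 with them, and none of these passed. Restricted high minus high turned likewise, to -0.15 and -0.14 against 0.20 and 0.12. High minus low RFI pigs was 0.0026 on A_72_P454928 and 0.07 on A_72_P388198, against 0.34 on the brightest probe, and none passed. On these 2 probes 4 and 5 of 8 restricted pigs lay above the low RFI mean, against 7 of 8 on the brightest probe. Correlations among the 3 probes, with group means removed, were 0.86 to 0.91 over the 24 arrays. High RFI pig 7 was the highest of its group on A_72_P388198, at -0.22, but not on A_72_P454928, where pig 5 exceeded it.

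Restricted pigs 7 and 8 were on different slides and different scan days, with 67.8% and 70.3% of their spots well above background. Their hepatocyte marker level was 7.54 and 7.55, within the range of the group. Their skeletal muscle marker level, -0.64 and -0.70, lay at the low end of that group's range of -0.70 to -0.19. Pig 7 was also the lowest of the group on the endothelial list, at 0.97, where pig 8 stood at 1.18. On the pancreatic acinar list pig 7 was the highest of the group, at 0.37, and pig 8 stood at -0.92. The part of these cell types in the GYS2 and UGP2 values was not tested.

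**Figure D3:**
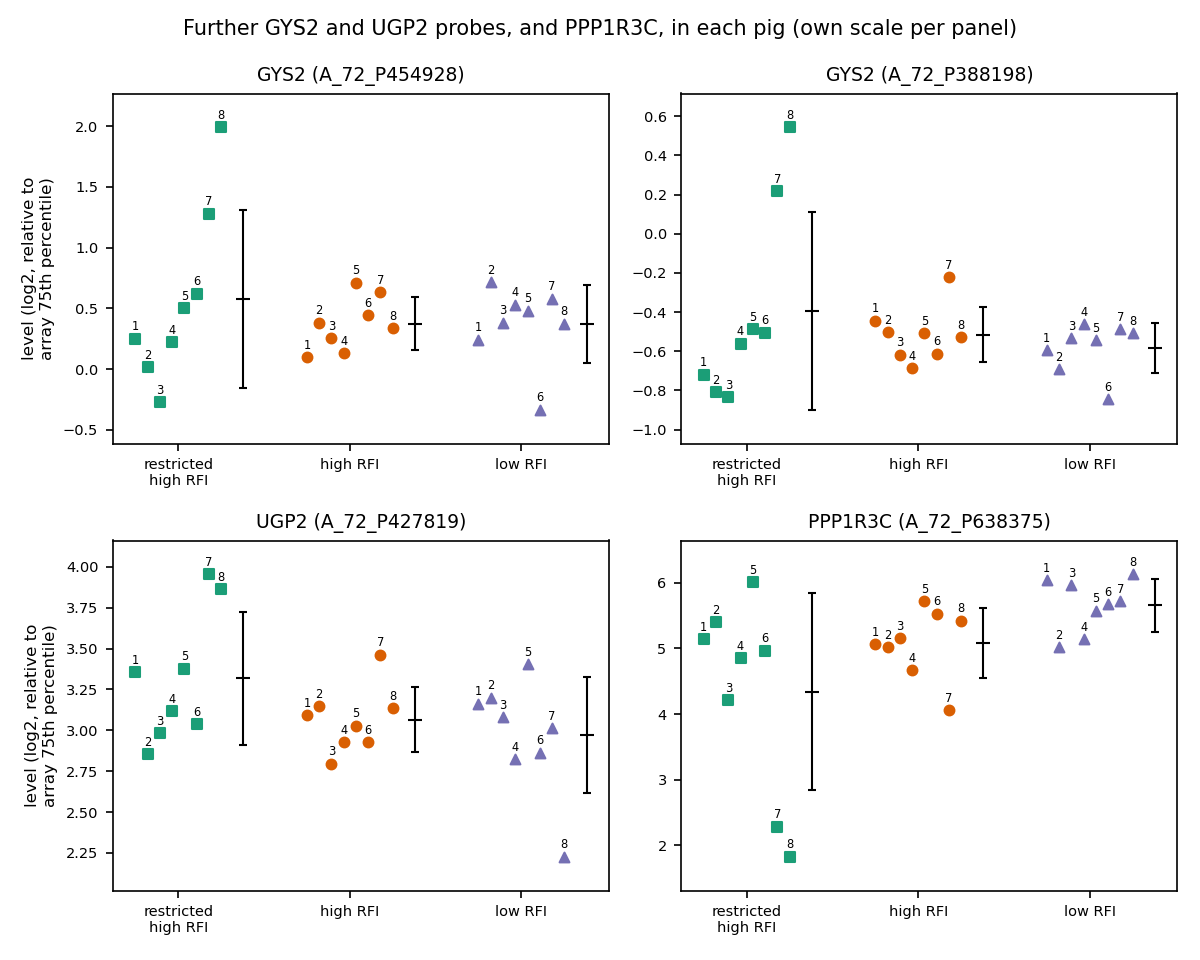
Levels (log2, scaled to each array's 75th percentile, vertical axis, with its own scale in each panel) of the other 2 GYS2 probes, of UGP2 probe A_72_P427819 and of PPP1R3C in every pig by group, with pig numbers and the group mean ± SD. Restricted high RFI pigs 7 and 8 are the highest of their group in the GYS2 and UGP2 panels and the lowest in the PPP1R3C panel.

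PYGL releases glucose units from liver glycogen. Its probe A_72_P527333 had a lowest, median and highest level of 5.13, 5.46 and 5.66 in restricted high RFI pigs, 5.11, 5.55 and 5.69 in high RFI pigs and 5.40, 5.57 and 5.69 in low RFI pigs. Restricted pig 8 and high RFI pig 7 were the lowest, and both were among the 3 highest pigs for GYS2. The means were 5.45 ± 0.16 in restricted high, 5.495 ± 0.20 in high and 5.56 ± 0.10 in low RFI pigs (SD, n = 8 each), and the spread within each group exceeded the gap to its neighbour. PYGL gave -0.10 for restricted high minus low RFI pigs (95% interval -0.28 to 0.07, adjusted p = 0.657), -0.04 for restricted high minus high (-0.22 to 0.13, adjusted p = 0.987) and -0.06 for high minus low (-0.24 to 0.12, adjusted p = 0.866). All 4 PYGL probes lay below 0 for restricted high minus low and for high minus low RFI pigs, and for restricted high minus high 2 lay below and 2 above. These directions turned with another background correction, under which the brightest probe gave 0.09, 0.05 and 0.04 for the same 3 comparisons (none passed).

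The genes differed in how much pigs of a group varied. Within groups the SD was 0.54 for GYS2, larger than that of 89.4% of kept probes, and 0.34 for LDHA, larger than 65.8%. It was 0.24 for PGK1 (39.4%), 0.22 for UGP2 (32.3%), 0.17 for GPI (15.4%) and 0.16 for PYGL (12.3%), against a median of 0.27 over all kept probes. The intervals of GPI, PGK1, LDHA, UGP2 and PYGL reached no further than 0.49 from 0 in any comparison, and those of GYS2 reached 1.03.

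Among pigs of the same group, the 3 glycolytic genes varied together. With group means removed, GPI and LDHA correlated at r = 0.72 (rho = 0.70) over the 24 arrays, with an adjusted permutation p = 0.00120. For PGK1 and LDHA r was 0.71 (rho = 0.71, adjusted permutation p = 0.00262), and for GPI and PGK1 r was 0.66 (rho = 0.66, adjusted permutation p = 0.00275). All 15 pairs of the 6 genes were examined, p-values were adjusted over them, and 5 passed. The share of other gene pairs that would pass was not computed, so these values do not set the members apart from other genes. With group means kept, the closest genes outside the set reached r = 0.82 for GPI, 0.87 for PGK1 and 0.87 for LDHA. Variation shared by whole arrays was not tested as a source of these correlations. Without the 2 arrays farthest from the median of the first gene, r was 0.65, 0.71 and 0.72 for these pairs.

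Within scan days the first pair held and the other pairs were uneven. On the first and second day r was 0.81 and 0.76 for GPI and LDHA (adjusted permutation p = 0.0381 and 0.0145), 0.32 and 0.75 for PGK1 and LDHA (0.915 and 0.0463), and 0.36 and 0.89 for GPI and PGK1 (0.728 and 0.0145). After quantile normalization GPI and PGK1 gave r = 0.50 (adjusted permutation p = 0.0562). The days have 12 arrays each.

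The remaining correlations called were between glycogen genes, and neither passed by rho or without restricted pigs 7 and 8. GYS2 and UGP2 gave r = 0.66 but rho = 0.38 (adjusted permutation p = 0.0223 and 0.290). Without the 2 arrays farthest from the GYS2 median r was 0.46, and without restricted pigs 7 and 8 it was 0.18 (adjusted permutation p = 0.496). GYS2 and PYGL gave r = -0.60 and rho = -0.29 (adjusted permutation p = 0.0275 and 0.383), and r = -0.09 without the 2 farthest arrays but -0.50 without restricted pigs 7 and 8 (adjusted permutation p = 0.149). Neither pair passed on either scan day alone: r was 0.77 and 0.57 for GYS2 and UGP2, and -0.59 and -0.65 for GYS2 and PYGL, on the first and second day. With normexp background correction and with quantile normalization, all pigs kept, GYS2 and UGP2 passed (r = 0.68 and 0.72, adjusted permutation p = 0.00085 and 0.0075). GYS2 and PYGL did not (r = -0.39 and -0.55, adjusted permutation p = 0.143 and 0.0798). The other 10 pairs had r between -0.39 and 0.32, and none passed. One of them, GPI and PYGL, passed in other settings, with r = 0.53 both for deviations from slide means (adjusted permutation p = 0.0290) and with normexp background correction (0.0408), against r = 0.28 here.

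**Figure D4:**
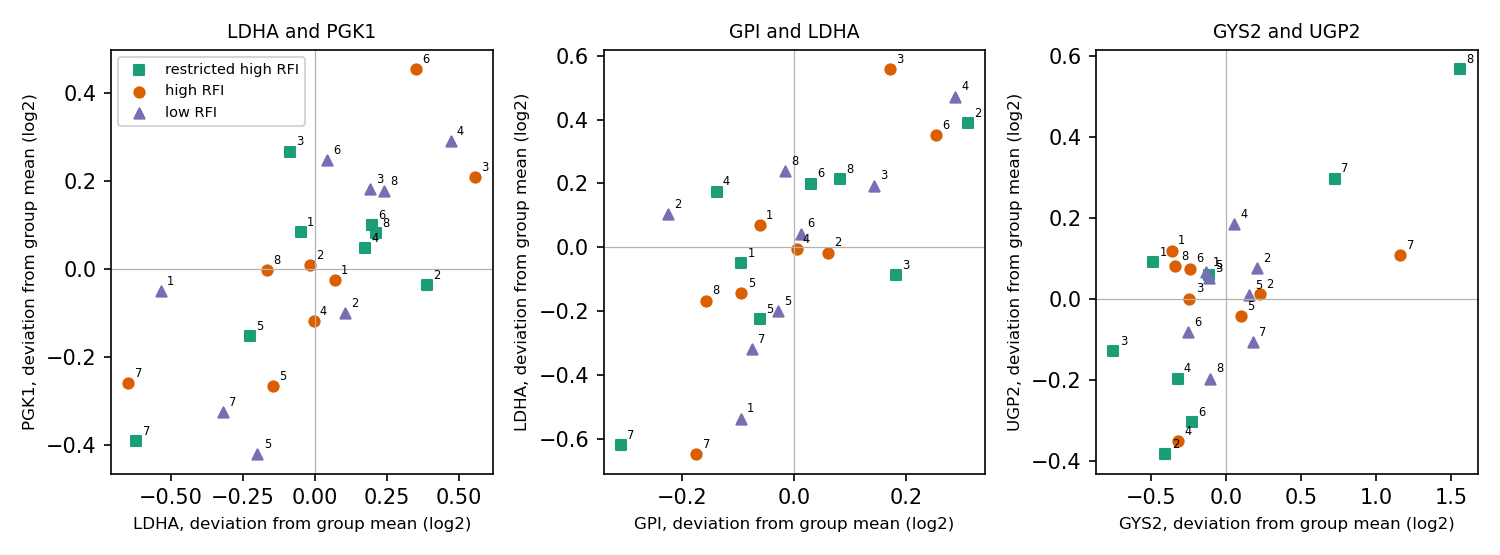
Deviations from the group mean (log2) of LDHA against PGK1, GPI against LDHA and GYS2 against UGP2, 1 point per pig with its number and a symbol for its group. The first 2 panels show an upward spread over all groups, and in the third restricted high RFI pig 8 lies far from the other points.

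Genes whose level followed a member most closely were ranked by Pearson's r over the 24 arrays among 3987 other genes with 1 symbol, as a description with no test. The arrays share their scaling and scan, and group means were not removed. For GPI they were ARL1 (r = 0.82), ARF4 (0.79) and SPCS1 (0.78), for PGK1 RAB11A (0.87), SDHD (0.85) and CRK (0.85), and for LDHA EIF3A (0.87), RTCB (0.83) and PSMD1 (0.82). For PYGL they were TUBGCP4 (0.71), OTC (0.66) and N4BP2L2 (0.64).

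For GYS2 the genes most alike included STAT3 (r = 0.83) and PPARGC1A (0.82), and for UGP2 they were LPIN1 (0.74), GNAI3 (0.73) and CPD (0.71). Without restricted pigs 7 and 8 the values for GYS2 were 0.67 and 0.47, and those for UGP2 were 0.25, 0.53 and 0.43. For the glycolytic members leaving out these pigs moved no such value below 0.75.

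Of 32 further genes of glycolysis, glucose uptake and their control, 15 were named by a probe and 12 passed the filter. None of the 12 was called by limma in any comparison, and 1 in each had an unadjusted p below 0.05. Of all kept probes, 5.37% had such a p for restricted high minus high, 12.8% for restricted high minus low and 9.64% for high minus low RFI pigs. The median difference of the 12 genes was -0.05, 0.02 and 0.08 in these comparisons, against -0.01, -0.0053 and 0.0036 over all kept probes.

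PFKFB4, which sets the level of an activator of glycolysis, had the smallest p of these genes in both comparisons with the high RFI group. Its probe A_72_P317913 had a lowest, median and highest level of -4.44, -4.00 and -3.68 in restricted high, -4.17, -3.68 and -3.44 in high and -4.37, -4.05 and -3.82 in low RFI pigs. High RFI pigs were mostly the highest, and the groups overlapped. High minus low RFI pigs was 0.36 ± 0.12 (SE, adjusted p = 0.275), and restricted high minus high -0.34 ± 0.12 (SE, adjusted p = 0.747).

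The other listed genes with the smallest p-values lay closer to 0 or were dim. For restricted high minus low RFI pigs TPI1, which interconverts the triose phosphates, was at 0.23 ± 0.10 (SE, adjusted p = 0.351), SLC2A2, the glucose transporter of the liver cell, at 0.24 ± 0.12 (SE, adjusted p = 0.394) and the glucose transporter SLC2A1 at -0.26 ± 0.14 (SE, adjusted p = 0.461). Leaving out restricted pigs 7 and 8, SLC2A2 was at 0.16 and SLC2A1 at -0.10. For restricted high minus high RFI pigs MLXIPL, a transcription factor that responds to carbohydrate, was at -0.22 and LDHC at -0.78. LDHC was well above background in only 3 restricted high, 7 high and 4 low RFI pigs, and stood at -0.28 without restricted pigs 7 and 8. It passed the filter through the high RFI group alone. The filter thus favours a higher LDHC value in that group, and the difference from it is no test. LDHC is counted among the tested genes of its list and in the list medians. For high minus low RFI pigs PFKM, a phosphofructokinase, was at -0.15 and GAPDH, the enzyme just before PGK1, at 0.10.

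Of 27 further genes of glycogen making, breakdown and control, 7 were named by a probe, and all 7 passed the filter. None was called by limma. For restricted high minus high, restricted high minus low and high minus low RFI pigs, 0, 1 and 1 of them had an unadjusted p below 0.05. Of all kept probes, 5.37%, 12.8% and 9.64% had such a p. The median difference of the 7 genes was -0.03, -0.18 and -0.06 in these comparisons, against -0.01, -0.0053 and 0.0036 over all kept probes.

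PPP1R3C targets protein phosphatase 1 to glycogen, where the phosphatase switches glycogen synthase on. In restricted high RFI pigs 1 to 8 its probe A_72_P638375 stood at 5.14, 5.40, 4.21, 4.85, 6.01, 4.96, 2.28 and 1.83. The lowest, median and highest level was 4.06, 5.11 and 5.72 in high and 5.02, 5.70 and 6.13 in low RFI pigs. Restricted pigs 7 and 8 lay below all others, and the lowest high RFI pig was pig 7, so the 3 pigs highest for GYS2 were the 3 lowest for PPP1R3C. PPP1R3C gave differences of -1.32 ± 0.45 for restricted high minus low (SE, adjusted p = 0.205), -0.74 ± 0.45 for restricted high minus high (SE, adjusted p = 0.940) and -0.58 ± 0.45 for high minus low RFI pigs (SE, adjusted p = 0.726). Without restricted pigs 7 and 8 restricted high minus low was -0.56 ± 0.26 (SE, adjusted p = 0.469) and restricted high minus high turned to 0.02 ± 0.26 (SE, adjusted p = 0.996).

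PHKG1, the catalytic subunit of a phosphorylase kinase, was at -0.38 ± 0.17 for high minus low RFI pigs (SE, adjusted p = 0.467) and at 0.20 ± 0.17 for restricted high minus high (SE, adjusted p = 0.965). PPP1R3D, another subunit that brings the phosphatase to glycogen, was at -0.24 ± 0.14 for restricted high minus low (SE, adjusted p = 0.486) and -0.13 ± 0.13 for high minus low RFI pigs (SE, adjusted p = 0.811), with 1 restricted spot left out as an outlier. GYS1, the glycogen synthase of muscle and other tissues, was at -0.31 ± 0.20 for restricted high minus low and -0.25 ± 0.20 for restricted high minus high (SE, adjusted p = 0.536 and 0.959). It was well above background in 2 restricted high, 6 high and 4 low RFI pigs, and so passed the filter through the high RFI group alone. The filter thus favours a higher GYS1 value in that group, and the difference from it is no test. GYS1 is counted in the list medians.

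Probes related to the set by their description but naming no pig member were left out of all counts above. Probe A_72_P340503 is described as a partial match to the zebrafish R/L pyruvate kinase, the enzyme that PKLR encodes in pigs. Its level was -3.93, -3.54 and -2.79 (lowest, median and highest) in restricted high, -3.78, -3.25 and -2.96 in high and -3.55, -2.76 and -2.40 in low RFI pigs. The groups overlapped, with low RFI pigs mostly the highest. Restricted high minus low RFI pigs was -0.57 ± 0.18 (SE, adjusted p = 0.175), high minus low -0.38 ± 0.18 (SE, adjusted p = 0.510) and restricted high minus high -0.19 ± 0.18 (SE, adjusted p = 0.967). A probe described as a GPI processed pseudogene was at 0.05 or less from 0 in each comparison, and passed the filter through the high RFI group alone. A probe described only as glycogen phosphorylase failed the filter.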

How the data were processed

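Liver RNA was measured on 1-colour Agilent arrays, 1 per pig, with 150 ng of Cy3-labelled RNA per the labels' protocols. The deposited intensity values are the processed signal of Agilent Feature Extraction 10.7.3.1, with spatial and multiplicative detrending switched on and background correction switched off per the file headers. A log2 table that the authors deposited covers 27564 features, correlates at 1 with log2 of that signal on every array and has column medians of 0, and the rule behind those features is not known here. The submitters' processing notes name R 2.10.0.

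Of 45220 features, 1417 controls and outlier-flagged spots were left out, the 75th percentile of log2 signal was subtracted per array, and spots of a probe were averaged. Probes well above background on at least 6 of 8 arrays of a group were kept. The test was limma (version 3.58.1, R 4.3.3) with group as the factor over 24 arrays, with Benjamini-Hochberg adjustment over 29666 probes and a threshold of 0.05. The limma fit was tested on simulated data for high minus low RFI pigs. Correlations used 100000 permutations (Python 3.11.15, scipy 1.17.1).

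Samples were grouped by their titles. Members, lists and tests were chosen with earlier results of these data known. Named genes are the members by their brightest probe, list genes past the threshold, the 3 smallest p-values per list and comparison, the 3 genes most alike per member, and the brightest and the dim markers; 1 gene most alike and 1 marker list are not reported here. Names came from the scanner output through tables of pig gene names and RefSeq annotation of Sscrofa11.1; 10736 of 43603 probes had 1 symbol. No genome build was named for the array, so no positions are given. The number of arrays limits the precision. Background correction, scaling, dim-probe filter, slide, scan day, replicate number, pigs left out and probe choice were varied.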

Additional observations from a re-analysis of the deposited data

Results flagged for a closer look

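In each group of 8 pigs the highest and lowest value of each of the 22 probes was compared with its nearest neighbour, relative to the range of the group. Of 66 sets of 8 values, 8 held a value farther out than Dixon's 95% critical value for 8 values. For a single set, chance alone does this about 1 time in 20. The 66 sets are not independent, since the 22 probes read 6 genes in the same pigs, so their count cannot be set against that rate. Those 8 sets lay in 4 of the 6 genes, and for the brightest probes there were 2 among 18 sets.

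The UGP2 value of high RFI pig 4 stood apart on 3 probes, of which A_72_P606238 and A_72_P165756 overlap: it was 5.17 on A_72_P606238 (next lowest 5.48), 5.10 on A_72_P165756 (5.46) and 5.22 on A_72_P581152 (5.47). These 3 probes correlate at 0.96 to 0.98 with group means removed, so the 3 marks repeat 1 value. The GYS2 value of high RFI pig 7 was 2.66 on A_72_P416118, and the next highest of its group was 1.72. On GYS2 probe A_72_P454928 low RFI pig 6 stood at -0.33, and the next lowest was 0.24. On GPI probe A_72_P146806 low RFI pig 6 stood at 1.07 (next highest -0.21) and high RFI pig 6 at -0.22 (next highest -0.62). On PGK1 probe A_72_P718553 high RFI pig 7 stood at 1.72, and the next lowest was 2.19. Restricted pigs 7 and 8 were not marked for GYS2, since each is the other's neighbour.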

How the results depend on the processing

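Under 702 alternative fits of the 18 differences, none passed the threshold, 664 kept their direction and 38 turned it. All 497 recomputed counts of members, other member probes and list genes called stayed at 0. Normexp background correction shifted the median of all kept probes by -0.10 for restricted high minus low RFI pigs and gave PYGL differences of 0.0447 (high minus low), 0.0451 (restricted high minus high) and 0.0898 (restricted high minus low). Restricted high minus low RFI pigs turned for GPI and LDHA after quantile normalization (-0.0176 and -0.0233), without slide 3 (-0.0187 and -0.12) and on scan day 2 alone (-0.0610 and -0.51), for PGK1 on scan day 2 alone (-0.11), for LDHA without low RFI pigs 7 and 8 (-0.0062), for UGP2 without restricted pigs 7 and 8 (-0.0048) and for GPI with the mean of its probes (-0.10). High minus low turned for GPI and LDHA on scan day 1 alone (0.0213 and 0.29), for PGK1 on scan day 2 alone (-0.15) and for LDHA and PYGL without high RFI pigs 5 and 7 (0.0203 and 0.0298). Restricted high minus high turned for LDHA and PYGL on scan day 2 alone (-0.14 and 0.0160), for LDHA without slide 3 (-0.00037) and without high RFI pigs 5 and 7 (-0.0134), and for GYS2 and PYGL without restricted pigs 7 and 8 (-0.22 and 0.0052). Leaving out 1 pig at a time gave -0.0378 to 0.0684 for PGK1 in high minus low, -0.0695 to 0.10 for LDHA and -0.0021 to 0.0866 for GPI in restricted high minus low, and -0.0611 to 0.33 for GYS2 and -0.10 to 0.0012 for PYGL in restricted high minus high RFI pigs. The cause of these turns was not tested.

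Over all kept probes, calls for restricted high minus low RFI pigs numbered 68, but 13 with normexp, 36 and 10 on scan day 1 and 2 alone, 32 with only both groups in the fit, 24 without slide 3, 31 without low RFI pigs 7 and 8, 25 without restricted pigs 7 and 8, and 30 to 145 with 1 pig left out. For high minus low RFI pigs they numbered 48, but 5 with normexp, 28 without the filter on dim probes, 5 and 10 on scan day 1 and 2 alone, 28 without slide 3, and 27 to 57 with 1 pig left out. For restricted high minus high they were 0, but 1 on scan day 2 alone and 0 to 1 with 1 pig left out.

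Of 8 same-numbered pairs of pigs, 5 correlated above 0.1 for restricted high and high RFI pigs (mean r 0.145, against -0.0196 for other pairs; 4 of 8 pigs correlated best with their own number), 2 for restricted high and low (0.0152 against -0.0019; 0 of 8) and 1 for high and low RFI pigs (0.0032 against 0.00038; 1 of 8). Were the numbers arbitrary, about 1 of 8 pigs would correlate best with its own number. No label ties the numbers to a shared litter or day, so the main fit is unpaired. Whether restricted high and high RFI pigs of the same number are related was not tested. The replicate block left all member counts at 0 and raised the calls for restricted high minus low RFI pigs from 68 to 103.

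In another setting chosen after seeing the data, leaving restricted pigs 7 and 8 out of the differences of named list genes and other member probes, 6 of 46 turned and none passed: PPP1R3C restricted high minus high (0.0165), GYS2 A_72_P454928 (-0.15 against high, -0.148 against low) and A_72_P388198 (-0.14 and -0.0705), and UGP2 A_72_P581152 against low RFI pigs (-0.0342). Of the 15 correlations 5 passed, but 3 after quantile normalization, and, in settings chosen after seeing the data, 1 and 3 on scan day 1 and 2 alone and 3 without restricted pigs 7 and 8. GPI and PYGL passed only with normexp (0.53) and for deviations from slide means (0.53). Signs turned for LDHA and GYS2 (0.0269) and PYGL and UGP2 (0.10) without the 2 farthest arrays, for GPI and GYS2 (0.11), GPI and UGP2 (0.20), PGK1 and UGP2 (0.21) and PYGL and UGP2 (0.0305) with normexp, for PGK1 and UGP2 with group means kept (0.0630), for GPI and GYS2 (0.0560), PGK1 and UGP2 (0.30) and LDHA and GYS2 (0.0395) on scan day 1 alone, and for PGK1 and UGP2 (0.10) and PYGL and UGP2 (0.0360) without restricted pigs 7 and 8.

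Signal does not limit the members, all of which were well above background. The limits are the number of arrays, the restricted pigs that stand apart, and 2 members with no naming probe.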

Other observations

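PGM1, which converts glucose phosphates into each other on the way into and out of glycogen, varied more between pigs than any member, and was singled out after its values were seen. Its probe A_72_P233607 stood at 3.07 in restricted high RFI pig 2 and between 4.94 and 6.11 in the other 7 restricted pigs. High RFI pigs lay between 4.34 and 5.91. Low RFI pigs 4 and 5 stood at 2.91 and 2.21, and the other 6 low RFI pigs between 4.90 and 5.97. The group means were 5.22 ± 0.95 in restricted high, 5.23 ± 0.54 in high and 4.77 ± 1.44 in low RFI pigs (SD, n = 8 each). Restricted high minus low RFI pigs was 0.44 ± 0.49 (SE, adjusted p = 0.755), so the difference lay within the spread between pigs. The 3 pigs with low values were not those that stood apart for GYS2, UGP2 or PPP1R3C.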
